A study of Mus musculus with 42 samples.

Results

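Platelet depletion with an antibody against GPIba was compared with a non-specific IgG control in the low-flow carotid intima of C57BL/6J mice. The comparison was defined by the sample labels and held 4 of the 42 samples of the series, 2 libraries for anti-GPIba and 2 for IgG. All 4 came from wild-type mice whose carotid had been partially ligated 48 hr earlier, a surgery that lowers flow in the ligated artery, and the mice had received anti-GPIba in a single injection at the time of ligation, or IgG. The IgG libraries serve as control for both antibodies of the study, which were given at different times, and the labels do not say at which time this IgG was given. Each library was made from polyA RNA of a pool of 3 to 5 intimal flushes, in which the lining of the artery is lysed in place, so that endothelium and every cell adhering to it are read together. The replicates are pools, and p-values measure the spread between pools, not between single mice. The values used beside them came from low-flow arteries after anti-Gr1 (granulocytes) with the same IgG controls, clodronate liposomes (macrophages) or PBS liposomes, from contralateral high-flow arteries, and from untreated mice at 48 hr.

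Platelets are anucleate fragments of megakaryocytes. They bind exposed or activated vessel wall through the GPIb-IX-V receptor complex, of which GPIba is the subunit that contacts von Willebrand factor, and they release stored chemokines and growth factors there. Leukocytes can attach to vessel wall that platelets have covered, through P-selectin and platelet chemokines. Arterial endothelium under low and disturbed flow is known to bind leukocytes and to divide. Platelets carry little RNA, so their transcripts are a small part of an intimal flush, whereas leukocytes with nuclei add far more.

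The 4 libraries held between 16474222 and 19035957 estimated counts, within the range of all 14 libraries of treated mice, 12286104 to 19035957. Replicates correlated at 0.968 for anti-GPIba and 0.972 for IgG across the log2 levels of the tested genes. Genes that mark endothelium were high in all 4 libraries: Pecam1, an adhesion molecule of endothelial junctions, was at 1662 and 1628 FPKM (fragments scaled by transcript length and library size, computed from the counts) with anti-GPIba and at 770.2 and 496.2 FPKM with IgG, and Cdh5 (VE-cadherin) at 26.0 and 26.8 against 38.6 and 31.1 FPKM. Markers of other tissues stood out in single libraries. Tg, the precursor of thyroid hormone, was at 6.38 FPKM in IgG replicate 1 and at 0.0634 FPKM in IgG replicate 2. It was listed at 0 in both anti-GPIba libraries. The fit of the 14 libraries described below called Tg lower with anti-GPIba. Fits with edgeR on the 4 libraries or on the 10 low-flow libraries did not, and DESeq2 on the 4 libraries called 1 of 8 thyroid genes lower. The summed level of 11 skeletal muscle genes was 132.1 FPKM in anti-GPIba replicate 2 and between 2.01 and 21.6 FPKM in the other 3 libraries, and that of 12 fat cell genes was 1265 FPKM in anti-GPIba replicate 2 and between 88.6 and 332.7 FPKM in the others.

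Many transcripts of the low-flow intima differed between the anti-GPIba and IgG libraries. Of 13401 genes tested, 2216 (16.5%) passed an adjusted p of 0.05 in edgeR's quasi-likelihood test with Benjamini-Hochberg adjustment: 1405 (10.5%) were lower with anti-GPIba and 811 (6.05%) were higher. The lowered genes had moved further. Their median change was 1.72 on the log2 scale against 1.33 for the raised genes, and 257 lowered genes but 3 raised genes had changed at least 16-fold, counting a gene listed at 0 in one group at the bound that 3 counts per library allow. The libraries of the 2 groups did not overlap for 74.2% of all tested genes, so separation of the 4 values alone says little about a gene. Every called gene named below was separated in this way.

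**Figure D1:**
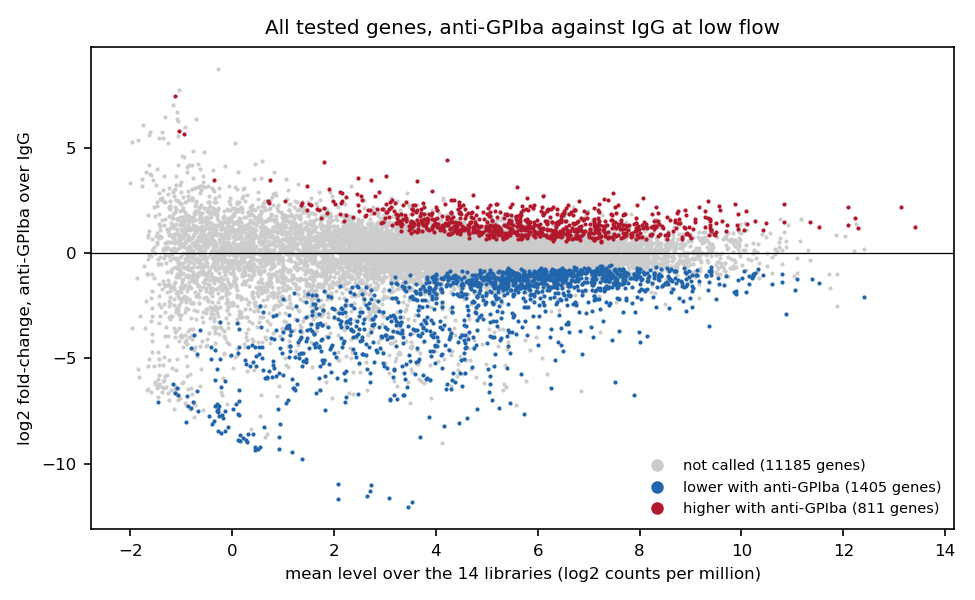
Log2 fold-change of anti-GPIba over IgG (vertical axis) for each of the 13401 tested genes against its mean level over the 14 libraries as log2 of counts scaled by library size (horizontal axis), with 1405 lowered genes in blue, 811 raised genes in red and the others in grey. The lowered genes reach much further from 0 than the raised ones, and the lowest points are genes listed at 0 with anti-GPIba, whose fitted change is not a measured size.

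With 2 pools a side the count of calls depended on the whole set of 4. Without anti-GPIba replicate 1 the same fit called 15 genes, without anti-GPIba replicate 2 it called 1, without IgG replicate 1 it called 83, and without IgG replicate 2 it called 89, the lone pool being assumed to vary like the other groups. A fit of the 4 libraries alone called 4449 genes with edgeR and 4926 with DESeq2, of which 2197 and 2205 were among the 2216. Of all genes on the lists described here 234 were called, and leaving out the same libraries in that order left 6, 0, 25 and 36 list genes called.

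The transcripts of the platelet receptor itself were at the lower edge of detection. Gp5, which encodes the GPV subunit, was at 0.416 and 0.334 FPKM with IgG and was listed at 0 in both anti-GPIba libraries, at least 4.56-fold lower, with an adjusted p of 0.0613. Gp9 (GPIX) was at 2.64 and 0.945 FPKM with IgG and at 0.424 and 0.332 with anti-GPIba, a log2 difference of -2.23 ± 0.93 (SE) that did not pass (adjusted p = 0.108). Gp1bb (GPIb beta) was at 0.511 and 0.118 FPKM with IgG and at 0.141 and 0.178 with anti-GPIba, where the groups overlapped. Its exons overlap those of Sept5 on the same strand in the annotation, so reads of those 2 genes cannot be kept apart with certainty. Gp1ba, the gene of the subunit that the antibody binds, went the other way. On mouse chr11:70452624-70456328 (mm9), it was at 6.29 and 4.28 FPKM with anti-GPIba and at 2.51 and 1.44 FPKM with IgG, 2.62-fold higher (log2 1.39 ± 0.38, adjusted p = 0.0371). The call was lost in a fit of the 10 low-flow libraries (adjusted p = 0.0505) and when any of the 4 libraries was left out (adjusted p from 0.0552 to 0.265). In the contralateral high-flow arteries of IgG-treated mice Gp1ba was at 4.97 and 5.03 FPKM, near the anti-GPIba level. By the read names in the table header those high-flow libraries came from another sequencing run than the low-flow ones, so flow and run cannot be told apart there, whereas anti-GPIba and IgG at low flow shared a run. Gp1ba was thus the subunit that was higher with anti-GPIba in both pools.

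Among 19 further genes of platelets and megakaryocytes, 18 were tested, 4 were lower with anti-GPIba (22.2%, against 10.5% of all tested genes) and none was higher. Ppbp, the precursor of the platelet chemokine CXCL7, was at 9.60 and 3.98 FPKM with IgG and at 0.181 and 0.414 with anti-GPIba (log2 -4.49 ± 0.93, adjusted p = 0.0219). P2ry12, the ADP receptor targeted by clopidogrel, was at 3.15 and 3.40 FPKM with IgG and at 0.155 and 0.252 with anti-GPIba (adjusted p = 0.0400). Rgs18, a regulator of G-protein signalling in megakaryocytes and other blood cells, was at 4.64 and 4.04 FPKM and fell to 0.396 and 0.452 (log2 -3.37 ± 0.66, adjusted p = 0.0210). Tubb1, the beta-tubulin of the platelet rim, was at 0.577 and 0.458 FPKM with IgG and listed at 0 in both depleted libraries (at least 3.89-fold lower, adjusted p = 0.0480). All of these were low in absolute level, and some macrophages also express P2ry12.

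Other platelet transcripts did not pass. Pf4, which encodes platelet factor 4, was at 30.3 and 32.5 FPKM with IgG and at 8.67 and 24.8 with anti-GPIba (adjusted p = 0.284). Itga2b, the alpha subunit of the fibrinogen receptor, was at 1.94 and 3.32 FPKM with IgG and at 0.671 and 1.78 with anti-GPIba (adjusted p = 0.156), and its partner Itgb3 was at 7.52 and 9.99 against 2.37 and 2.75 FPKM (adjusted p = 0.113). Genes of this list that endothelium also expresses stayed high: Vwf (von Willebrand factor) was at 248.1 and 267.3 FPKM with anti-GPIba against 127.0 and 69.8 with IgG (adjusted p = 0.0687), Selp (P-selectin) at 598.2 and 606.2 against 428.8 and 442.1 (adjusted p = 0.150), and Gng11 at 135.6 and 130.0 against 139.7 and 155.7 (adjusted p = 0.681). Thbs1 (thrombospondin 1) was at 330.8 and 255.5 against 921.9 and 853.9 FPKM (adjusted p = 0.104). Nrgn was at 2.96 and 2.84 against 9.40 and 6.63 FPKM and F13a1, the A chain of factor XIII, at 5.51 and 7.41 against 15.6 and 18.0. The remaining members, Clec1b, Alox12, Mmrn1, Treml1 and Gp6 among them, were below 2 FPKM in each of the 4 libraries. Gp6 did not reach the level needed for the test.

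**Figure D2:**
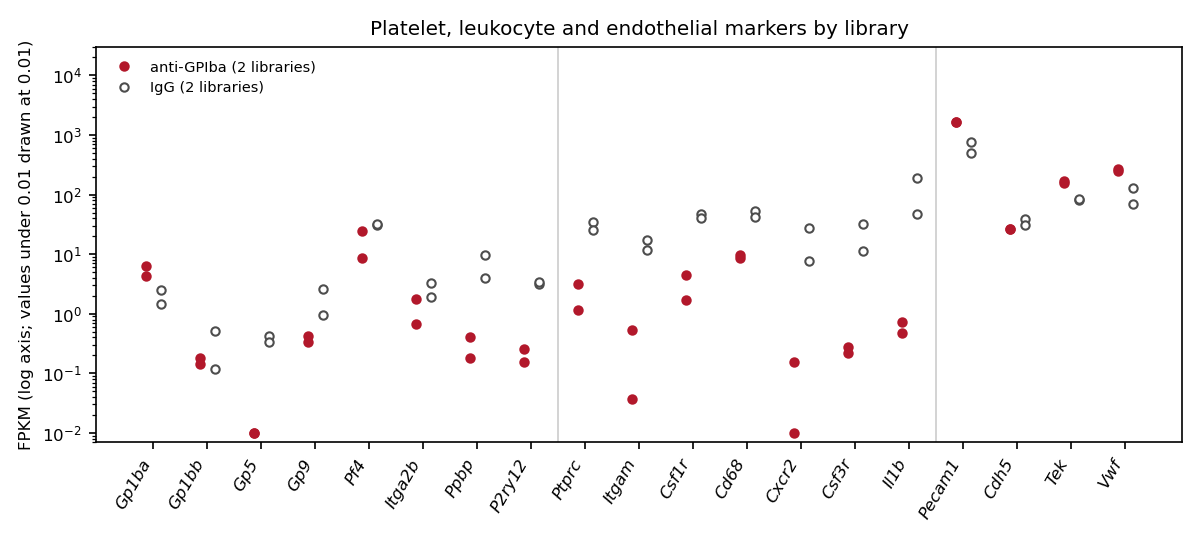
FPKM of 19 genes (vertical log axis) in each anti-GPIba library (filled red) and each IgG library (open grey), for platelet genes on the left, leukocyte genes in the middle and endothelial genes on the right. The IgG and anti-GPIba libraries separate by more than 10-fold for the leukocyte gene Cxcr2 and for the platelet gene P2ry12. They separate by less for the leukocyte gene Cd68, and those of Pf4 and Cdh5 lie nearer to each other. Gp1ba is the one platelet gene with anti-GPIba above IgG and an adjusted p under the threshold.

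Of 15 genes that all leukocytes share, 13 were lower with anti-GPIba (86.7%, against 10.5% of all tested genes), none was higher, and the median log2 change was -3.62 against -0.04 over all tested genes. Ptprc, which encodes the leukocyte common antigen CD45, was at 34.1 and 25.1 FPKM with IgG and at 3.11 and 1.15 with anti-GPIba (log2 -3.83 ± 0.57, adjusted p = 0.0113). Itgb2, the shared chain of the leukocyte integrins, on chr10:76992997-77028453 (mm9), was at 44.6 and 37.1 FPKM with IgG and at 3.13 and 2.30 FPKM with anti-GPIba, a fall of 3.94 ± 0.42 with the smallest adjusted p of the list (0.00361). Laptm5, a lysosomal protein of blood cells, went from 113.6 and 98.4 FPKM to 9.07 and 4.49 FPKM (adjusted p = 0.00374). Lsp1, which binds actin in leukocytes, was at 75.5 and 67.3 FPKM with IgG and fell to 10.7 and 9.07 (adjusted p = 0.00481), and Ptpn6, the phosphatase SHP-1, from 44.4 and 34.4 to 4.13 and 2.23 (adjusted p = 0.00585). In bulk flushes fewer leukocytes and less RNA in each leukocyte cannot be told apart. Of this list, 5 members were called without anti-GPIba replicate 1, none without anti-GPIba replicate 2, 10 without IgG replicate 1 and 10 without IgG replicate 2.

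Neutrophil genes made the largest drop of the blood cell lists. All 16 tested members had a negative log2 change, 11 passed (68.8%, against 10.5% of all tested genes), and the median was -4.68. Without anti-GPIba replicate 1 or 2 edgeR called 0 of them, without IgG replicate 1 it called 3 and without IgG replicate 2 it called 5. Cxcr2, the receptor for CXCL1 and CXCL7 on neutrophils, on chr1:74200563-74207812 (mm9), was at 27.2 and 7.79 FPKM with IgG, listed at 0 in one anti-GPIba library and at 0.153 FPKM in the other (log2 -7.80 ± 1.31, adjusted p = 0.0146). Csf3r, the receptor for G-CSF, fell from 32.3 and 11.1 FPKM to 0.281 and 0.223 FPKM (log2 -6.44 ± 0.82, adjusted p = 0.00595). Il1r2, the decoy receptor for IL-1, was at 92.0 and 47.2 FPKM with IgG and at 0.189 and 0.323 with anti-GPIba (log2 -8.07 ± 0.97, adjusted p = 0.00547). Trem1, an activating receptor of neutrophils and monocytes, was at 10.7 and 3.73 FPKM with IgG and at 0 in both depleted libraries (at least 123.0-fold lower, adjusted p = 0.0126). In each of these 4 genes IgG replicate 1 was the higher control, and IgG replicate 2 was still above both depleted libraries. The calgranulin genes, abundant in neutrophils, were lower too: S100a8 fell from 150.6 and 36.7 FPKM to 0.683 and 3.34 (adjusted p = 0.0211), and S100a9 from 177.3 and 44.5 to 3.62 and 8.83 (adjusted p = 0.0322).

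Genes of monocytes and macrophages were lower for 13 of 24 members (54.2%, against 10.5% of all tested genes) and higher for 1 (4.17%, against 6.05%), with a median log2 change of -2.55. Csf1r, the receptor through which M-CSF keeps macrophages alive, was at 47.3 and 41.1 FPKM with IgG and at 4.39 and 1.71 with anti-GPIba (log2 -3.89 ± 0.59, adjusted p = 0.0125). Itgam (CD11b) fell from 17.5 and 11.7 FPKM to 0.537 and 0.0366 FPKM (log2 -5.70 ± 0.99, adjusted p = 0.0150). Fcer1g and Tyrobp, the signalling chains of myeloid receptors, fell from 222.1 and 158.5 to 11.5 and 14.2 FPKM and from 213.8 and 156.8 to 11.1 and 17.6 FPKM, each with an adjusted p of 0.00743. Cd68, a lysosomal glycoprotein of macrophages, kept more of its level: it was at 52.2 and 41.4 FPKM with IgG and at 8.59 and 9.80 with anti-GPIba (log2 -2.37 ± 0.42, adjusted p = 0.0157). Emr1, which encodes F4/80, was at 6.87 and 6.03 FPKM with IgG and at 2.06 and 0.999 with anti-GPIba and did not pass (log2 -2.10 ± 0.91, adjusted p = 0.120). Gpnmb, a glycoprotein of lipid-laden macrophages that other cells express too, was the member that rose, from 0.598 and 0.316 to 1.89 and 3.38 FPKM (adjusted p = 0.0301).

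Of 6 Fc receptor genes 5 were lower (83.3%, against 10.5% of all tested genes), among them Fcgr4 (15.3 and 14.9 FPKM with IgG, 0.717 and 0.300 with anti-GPIba, adjusted p = 0.00743), Fcgr3 (111.8 and 114.0 to 7.92 and 10.7 FPKM, adjusted p = 0.00894) and the inhibitory receptor Fcgr2b (70.5 and 53.7 to 3.07 and 1.74 FPKM, adjusted p = 0.0150). These receptors bind the Fc part of IgG, and both groups had been given antibody. Of 8 genes for MHC class II presentation 5 were lower (62.5%): H2-Ab1 went from 481.3 and 396.0 FPKM to 83.8 and 92.3 (log2 -2.34 ± 0.60, adjusted p = 0.0321), H2-Aa, whose annotated exons overlap those of H2-Ab1 on the opposite strand, from 324.6 and 216.7 to 60.5 and 72.6, and H2-Eb1 from 159.2 and 113.6 to 23.5 and 29.2. The protease Ctss, which trims the invariant chain, fell furthest, from 240.2 and 257.0 to 12.8 and 12 FPKM (log2 -4.36 ± 0.67, adjusted p = 0.0125). Lymphocyte genes were sparse: 3 of 13 were lower (23.1%), including the T cell kinase Lck at 9.74 and 9.07 FPKM with IgG and 4.0 and 1.94 with anti-GPIba (adjusted p = 0.0369). Gzma, a granule protease of cytotoxic cells, went from 4.05 and 2.22 FPKM to 0.0771 FPKM and 0. Of 8 red cell genes edgeR called none, and 1 had an unadjusted p under 0.05, against 36.7% of all tested genes. DESeq2 on the 14 libraries called none, while edgeR and DESeq2 on the 4 libraries alone each called 3 as higher. Hbb-b2 was at 901.2 and 1089 FPKM with anti-GPIba and at 680.0 and 352.7 with IgG (adjusted p = 0.317). Its near-identical gene copies share reads, so the split among them is uncertain.

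Of 21 genes of the IL-1, TNF and IL-6 families and their receptors, 6 were lower (28.6%, against 10.5% of all tested genes) and 3 higher (14.3%, against 6.05%). Il1b, on chr2:129190306-129196875 (mm9), was at 188.5 and 47.2 FPKM with IgG and at 0.718 and 0.468 with anti-GPIba (log2 -7.64 ± 1.05, adjusted p = 0.00982). Osm, which encodes oncostatin M, was at 6.45 and 1.73 FPKM with IgG and listed at 0 in both depleted libraries (at least 42.9-fold lower, adjusted p = 0.0181). Receptor genes of this list were called in both directions, Il1r2 among the lower ones. Il6st, the gp130 chain shared by the receptors for IL-6 and oncostatin M, was at 424.7 and 405.3 FPKM with anti-GPIba and at 121.6 and 79.7 with IgG (log2 2.02 ± 0.35, adjusted p = 0.0150). Osmr, the specific chain of the oncostatin M receptor, was at 28.9 and 44.8 FPKM with anti-GPIba and at 12.9 and 5.79 with IgG (adjusted p = 0.0272).

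Chemokine genes were lower for 7 of 20 members (35.0%, against 10.5% of all tested genes) and higher for none. Ccl2, the main attractant of monocytes, was at 24.7 and 11.3 FPKM with IgG and at 1.71 and 1.67 with anti-GPIba (log2 -3.43 ± 0.63, adjusted p = 0.0173). Ccl7 fell from 26.6 and 13.8 to 1.47 and 3.30 FPKM (adjusted p = 0.0298) and Ccl9 from 39.1 and 36.4 to 3.52 and 6.45 FPKM (adjusted p = 0.0186). The neutrophil attractant Cxcl3 was at 7.47 FPKM in IgG replicate 1 and at 0.544 FPKM in IgG replicate 2, and was listed at 0 with anti-GPIba (at least 20.7-fold lower, adjusted p = 0.0285). Interferon-stimulated genes did not join them. With edgeR none of 25 was called and 5 had an unadjusted p under 0.05, against 36.7% of all tested genes. DESeq2 on the 14 libraries called 2 as higher and 1 as lower. The most abundant with IgG, Bst2, was at 168.1 and 163.3 FPKM with anti-GPIba against 236.6 and 151.5 with IgG.

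All 35 tested genes of the mitotic spindle, kinetochore and cytokinesis had a negative log2 change. The 2 groups did not overlap for any of them, as for 74.2% of all tested genes in either direction. All 35 had an unadjusted p under 0.05, as did 36.7% of all tested genes in either direction. Of the 35, 9 (25.7%, against 10.5% of all tested genes) passed the adjusted threshold. The median log2 change was -5.51. In a fit of the 4 libraries alone all 35 were called with edgeR and with DESeq2, with the 10 low-flow libraries 17 were, and with any one of the 4 libraries left out 0 were. Ccna2 (cyclin A2) was at 57.1 and 87.1 FPKM with IgG and at 1.14 and 0.588 with anti-GPIba (log2 -6.41 ± 1.83, adjusted p = 0.0396). Aurkb, the kinase of the chromosomal passenger complex, fell from 39.4 and 63.8 to 0.50 and 0.580 FPKM (log2 -6.60 ± 1.84, adjusted p = 0.0375). Spc25, part of the NDC80 kinetochore complex, went from 33.7 and 59.9 to 1.23 and 0.0544 FPKM (adjusted p = 0.0357). Esco2, which acetylates cohesin, was at 8.61 and 16.4 FPKM with IgG and at 0 in both depleted libraries, at least 205.3-fold lower (adjusted p = 0.0347), and Fam83d, a spindle protein, at 9.38 and 18.2 FPKM and at 0, at least 173.6-fold lower (adjusted p = 0.0338). IgG replicate 2 was the higher control for each of these genes.

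The promoters of 5 of the 9 lowered mitotic genes were in the RefSeq table for GRCm38.p6, and the 100 bases before the start are shown for these because the genes moved together. Capitals mark CCAAT and TTTGAA on either strand (ATTGG and TTCAAA when read from the other strand), the letters known in cell-cycle promoters as the CCAAT box and the core of the CHR element.
Bub1, chr2:127831860-127831959, minus strand: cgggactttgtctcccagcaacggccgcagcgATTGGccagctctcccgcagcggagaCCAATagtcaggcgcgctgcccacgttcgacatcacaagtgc
Cdca8, chr4:124936918-124937017, minus strand: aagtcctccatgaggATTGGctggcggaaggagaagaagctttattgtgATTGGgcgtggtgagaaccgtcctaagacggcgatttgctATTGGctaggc
Kif11, chr19:37376282-37376381, plus strand: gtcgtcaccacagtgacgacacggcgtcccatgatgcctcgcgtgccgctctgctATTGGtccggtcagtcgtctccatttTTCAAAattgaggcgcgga
Spc25, chr2:69206214-69206313, minus strand: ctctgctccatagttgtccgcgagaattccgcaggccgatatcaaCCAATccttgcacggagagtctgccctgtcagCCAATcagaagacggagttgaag
Fam83d, chr2:158767999-158768098, plus strand: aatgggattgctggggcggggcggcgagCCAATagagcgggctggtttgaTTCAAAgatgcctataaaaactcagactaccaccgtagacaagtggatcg
Each of the 5 stretches held at least 1 CCAAT, and those of Kif11 and Fam83d also held TTTGAA. Among all 35 mitotic genes, 30 had a promoter in the table, of which 23 (76.7%) held CCAAT and 8 (26.7%) held TTTGAA within 250 bases before the start, against 34.5% and 16.3% of the 27025 genes of the table. Of the 30 genes of DNA replication 25 had a promoter there. CCAAT was in 16 of them (64.0%), and TTCCCGC, a form of the E2F site, in 8 (32.0%), against 3.84% of all genes in the table, but in 0 of the 10 lowered replication genes with a promoter there. TTGGCGC, another E2F form, was in 3 (12%) of the replication genes and 2 (6.67%) of the mitotic genes, against 2.05%. The tested genes with a promoter there, 10617 or 79.2% of all tested and so not a full background, held CCAAT in 36.5%, TTTGAA in 10.8%, TTCCCGC in 6.9% and TTGGCGC in 3.51%. These matches describe the letters in the windows and were not tested.

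DNA replication and nucleotide synthesis genes moved in the same direction and less far. All 30 had a negative log2 change, 11 passed (36.7%, against 10.5% of all tested genes), 28 had an unadjusted p under 0.05, as did 36.7% of all tested genes in either direction, and the median was -2.64. With the 4 libraries alone edgeR called 29 of them, and with the 10 low-flow libraries 3. Tk1, the thymidine kinase of S phase, was at 47.5 and 95.2 FPKM with IgG and at 1.76 and 0.226 with anti-GPIba (log2 -6.20 ± 1.66, adjusted p = 0.0345). Tyms, which makes thymidylate, fell from 16 and 30.9 to 3.16 and 2.51 FPKM (adjusted p = 0.0338). The replicative helicase subunits Mcm2 (41.4 and 63.9 to 9.79 and 4.51 FPKM, adjusted p = 0.0350) and Mcm5 (44.1 and 76.2 to 8.12 and 3.70 FPKM, adjusted p = 0.0357) fell as well. Pcna, the sliding clamp of the polymerases, kept 58.5 and 50 FPKM of 181.5 and 255.5 FPKM. Among G1 regulators 2 of 24 were lower (8.33%, against 10.5% of all tested genes) and 2 higher (8.33%, against 6.05%). The count of lower members moved with the fit: it was 3 with the 10 low-flow libraries, 11 with DESeq2 on the 14 libraries, 14 with edgeR or DESeq2 on the 4 libraries alone, and 0 with any one of the 4 left out. Ccnd1 (cyclin D1) fell from 65.4 and 53.4 to 9.29 and 3.84 FPKM (log2 -3.21 ± 0.65, adjusted p = 0.0211) and its kinase Cdk4 from 298.0 and 404.5 to 110.3 and 114.3 FPKM (adjusted p = 0.0269). The 2 that rose were Cdkn1c (p57) and Rbl2 (p130), known as inhibitors of proliferation, Cdkn1c from 18.6 and 12.4 to 44.7 and 48.3 FPKM (adjusted p = 0.0320) and Rbl2 from 7.70 and 4.95 to 17 and 13.3 FPKM (adjusted p = 0.0347). Exons of both Ccnd1 and Cdk4 overlap another gene on the opposite strand.

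The level of the dividing-cell genes also varied between pools that shared a treatment. Summed over the 35 mitotic genes it was 37.7 and 27.7 FPKM with anti-GPIba and 847.2 and 1501 FPKM with IgG. It was 191.4 and 1527 FPKM after PBS liposomes, 59.6 and 1349 FPKM after clodronate, 125.0 and 67.6 FPKM after anti-Gr1, and 93.2 and 46.1 FPKM in high-flow arteries with IgG, which were read in another run. Both anti-GPIba pools were thus below the other 10 libraries, but the 2 PBS pools, both controls at low flow, themselves stood at 191.4 and 1527 FPKM. The summed level of the 24 macrophage genes, by contrast, was 271.0 and 393.2 FPKM with anti-GPIba, 2979 and 2850 with IgG, 1761 and 2767 with PBS liposomes and 350.7 and 309.9 with clodronate. The part of this spread in the number of mitotic calls was not tested beyond the fits given here.

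**Figure D3:**
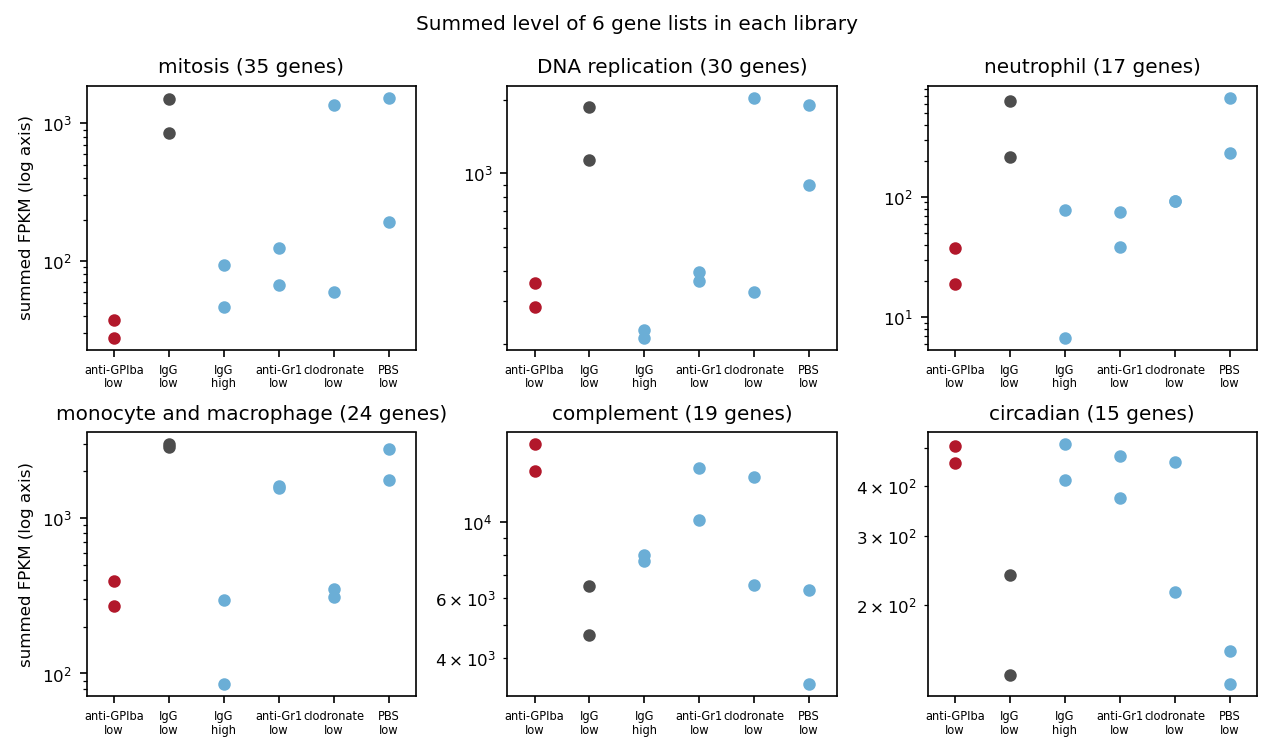
Summed FPKM of 6 gene lists (vertical log axis, a panel each) in the 2 libraries of each of 6 groups (horizontal axis), with anti-GPIba in red, its IgG control in dark grey and the other groups in blue. The mitosis points of the PBS and clodronate groups lie far apart within a group, whereas the macrophage points of the IgG, anti-Gr1 and clodronate groups at low flow lie close together, and the anti-GPIba points, at 271.0 and 393.2 FPKM, are near those of clodronate.

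Ribosome assembly had 9 of 28 members lower (32.1%, against 10.5% of all tested genes) and none higher, all 28 with a negative change, and a median of -1.33. Fbl (fibrillarin), the methyltransferase of box C/D particles, went from 121.1 and 140.6 to 33.5 and 39.9 FPKM (log2 -1.87 ± 0.46, adjusted p = 0.0303), and Npm1 (nucleophosmin) from 460.4 and 474.7 to 155.7 and 175.6 FPKM (adjusted p = 0.0295). The edgeR fit of the 4 libraries called 25 of these 28 genes and that of the 10 low-flow libraries called 3. Chaperones and targets of the unfolded protein response were lower for 9 of 20 (45.0%) and higher for 1 (5.0%, against 6.05%), with 4 lower in the fit of the 10 low-flow libraries and 0 to 1 with a library left out. Manf, secreted under stress of the endoplasmic reticulum, fell from 86.9 and 115.6 to 23.9 and 26.7 FPKM (log2 -2.03 ± 0.40, adjusted p = 0.0210), Creld2 from 100.9 and 144.8 to 38.0 and 34.4 FPKM (adjusted p = 0.0263), and the chaperone Calr from 331.2 and 369.1 to 171.7 and 158.4 FPKM (adjusted p = 0.0313). Trib3, a pseudokinase, rose from 10.2 and 10.7 to 38.5 and 43.7 FPKM (adjusted p = 0.0268).

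Glycolysis was lower for 7 of 19 genes (36.8%, against 10.5% of all tested genes) and higher for 1 (5.26%, against 6.05%), with 4 lower in the fit of the 10 low-flow libraries. The respiratory chain and ATP synthase were lower for 11 of 27 (40.7%) and higher for none. Gapdh fell from 1448 and 1547 to 557.0 and 548.3 FPKM (log2 -1.47 ± 0.34, adjusted p = 0.0272), Eno1 from 574.7 and 817.9 to 266.5 and 243.5 FPKM (adjusted p = 0.0310), and Slc16a3, the lactate exporter MCT4, from 12.3 and 5.73 to 2.49 and 1.53 FPKM (adjusted p = 0.0333). Cox5a, the most changed of the oxidative genes that were called, went from 271.9 and 265.0 to 79.0 and 116.3 FPKM (log2 -1.49 ± 0.31, adjusted p = 0.0221) and Ndufa9 from 114.5 and 134.7 to 67.3 and 72.4 FPKM (adjusted p = 0.0338). A fit of the 10 low-flow libraries called 1 of the 27 as lower. Cholesterol synthesis was lower for 5 of 17 (29.4%, and 3 in the fit of the 10 low-flow libraries), led by Sqle (squalene epoxidase) at 8.65 and 14.5 FPKM with IgG and 0.957 and 0.616 with anti-GPIba (log2 -3.91 ± 0.92, adjusted p = 0.0279), and Cyp51 went from 8.64 and 11.1 to 3.04 and 1.85 FPKM (adjusted p = 0.0334). In proline, serine and one-carbon synthesis 3 of 15 were lower (20%, and 12 with edgeR on the 4 libraries alone), among them Psat1, from 28.3 and 50.1 to 2.57 and 2.03 FPKM (log2 -4.12 ± 1.04, adjusted p = 0.0317).

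RNA-binding proteins that act on splicing were examined because the study asked how recruited platelets bear on endothelial splicing. Of 30 SR proteins, hnRNPs and their kinases 11 were lower (36.7%, against 10.5% of all tested genes) and 1 was higher (3.33%, against 6.05%), with a median log2 change of -0.92. Hnrnpa1 fell from 135.6 and 182.0 to 41.2 and 30.0 FPKM (log2 -2.19 ± 0.45, adjusted p = 0.0212), Hnrnpab from 381.6 and 463.7 to 134.6 and 125.3 FPKM (adjusted p = 0.0310), Hnrnpa2b1 from 354.5 and 433.5 to 187.2 and 190.2 FPKM (adjusted p = 0.0313), and Srsf9 from 202.6 and 271.8 to 113.7 and 114.3 FPKM (adjusted p = 0.0262). Clk1, a kinase that phosphorylates SR proteins, rose from 58.2 and 52.6 to 128.1 and 128.2 FPKM (adjusted p = 0.0345). These are mostly changes of about 2-fold on abundant transcripts, and the fit of the 10 low-flow libraries called 3 of the 30 as lower. Of 18 tissue-restricted regulators 2 were lower (11.1%, against 10.5% of all tested genes) and 1 higher (5.56%, against 6.05%), and with the 10 low-flow libraries 1 was lower and 0 higher, with edgeR on the 4 libraries alone 6 and 1. Elavl1 (HuR) went from 44.8 and 58.6 to 24.5 and 22.2 FPKM (adjusted p = 0.0348), Mbnl3 from 0.377 and 0.499 to 0.0133 and 0.00649 FPKM, and Nova1 rose from 1.32 and 0.843 to 2.85 and 2.98 FPKM (adjusted p = 0.0396). Rbfox2, on chr15:76909420-77137483 (mm9), was at 3.09 and 2.55 FPKM with anti-GPIba and at 4.72 and 5.25 with IgG, a log2 difference of -0.85 ± 0.33 that did not pass (adjusted p = 0.0900). Fn1 (fibronectin), on chr1:71632094-71699774, was at 37.0 and 21.1 FPKM with anti-GPIba and at 66.8 and 62.1 with IgG (log2 -1.18 ± 0.51, adjusted p = 0.117). These are gene totals and hold nothing on exon choice.

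Genes of sprouting endothelium, the tip cell group, were lower for 7 of 18 members (38.9%, against 10.5% of all tested genes) and higher for none, with a median log2 change of -2.35. Prnd, which encodes the prion-like protein doppel and shares annotated exons with its neighbour Prnp, was at 6.37 and 16.5 FPKM with IgG and at 0 in both depleted libraries (at least 143.0-fold lower, adjusted p = 0.00743). Angpt2 (angiopoietin 2), the antagonist of Tie2 released by activated endothelium, was at 128.9 and 214.7 FPKM with IgG and at 11.2 and 9.38 with anti-GPIba (log2 -4.10 ± 0.93, adjusted p = 0.0263). Pgf, a ligand of VEGF receptor 1, fell from 40.5 and 41.9 to 0.874 and 2.17 FPKM (log2 -4.78 ± 1.27, adjusted p = 0.0342), and Mcam (CD146) from 101.9 and 114.2 to 42.0 and 32.0 FPKM (adjusted p = 0.0247). The partners of Angpt2 rose. Angpt1, the agonist of Tie2, was at 3.13 and 3.69 FPKM with anti-GPIba and at 0.988 and 0.588 with IgG (log2 2.09 ± 0.55, adjusted p = 0.0338), and Tek, which encodes Tie2, at 166.6 and 158.1 against 80.3 and 85.4 FPKM (log2 0.94 ± 0.25, adjusted p = 0.0345). Nrp1, a co-receptor for VEGF, rose from 95.5 and 76.4 to 235.6 and 212.7 FPKM (log2 1.35 ± 0.22, adjusted p = 0.0143), while Flt1 (VEGF receptor 1) fell from 16.3 and 24.4 to 3.96 and 2.34 FPKM (adjusted p = 0.0346). Of the 16 angiopoietin and VEGF genes 4 were lower (25.0%) and 3 higher (18.8%, against 6.05%).

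Genes that define endothelium were higher for 2 of 18 (11.1%, against 6.05% of all tested genes), Pecam1 (log2 1.35 ± 0.33, adjusted p = 0.0304) and Tek, and lower for none, with a median log2 change of 0.60. The count of higher members moved with the fit: it was 9 with edgeR or DESeq2 on the 4 libraries alone, 2 with the 10 low-flow libraries, and 0 with any one of the 4 left out. In genes that laminar flow induces through Krüppel-like factors 3 of 20 were higher (15%, against 6.05%) and none was lower (against 10.5%), but the factors themselves did not pass. Klf2 was at 70.3 and 70.9 FPKM with anti-GPIba and at 105.1 and 23.2 FPKM with IgG (adjusted p = 0.879), far under the 679.1 and 931.9 FPKM of high-flow arteries. Those high-flow libraries were read in another run, so flow and run cannot be told apart there. Klf4 was at 9.16 and 14.6 against 6.55 and 2.28 FPKM (adjusted p = 0.0928), and Nos3, the endothelial nitric oxide synthase, at 196.2 and 176.1 against 133.5 and 93.5 FPKM (adjusted p = 0.0825). The 2 members besides Tek that rose were Cyp1b1, a cytochrome P450 that shear stress induces, from 22.0 and 12 to 88.9 and 80.9 FPKM (log2 2.30 ± 0.45, adjusted p = 0.0210), and the water channel Aqp1, from 65.9 and 32.5 to 104.1 and 160.4 FPKM (adjusted p = 0.0371).

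Of 14 adhesion molecules, by most of which endothelium captures leukocytes, 3 were higher (21.4%, against 6.05% of all tested genes), Pecam1 among them, and none was lower. Icam1 rose from 281.7 and 211.2 to 517.6 and 534.0 FPKM (log2 1.07 ± 0.32, adjusted p = 0.0449) and Jam2 from 49.4 and 26.1 to 102.4 and 102.6 FPKM (adjusted p = 0.0272). Vcam1 was at 971.8 and 812.1 FPKM with anti-GPIba and at 650.3 and 509.8 with IgG (adjusted p = 0.201). Sele (E-selectin) was at 26.9 and 28.0 against 94.2 and 86.3 FPKM (adjusted p = 0.170). Feedback targets of NF-kB were raised where they were called: Nfkbia, the inhibitor IkB alpha, from 182.9 and 162.9 to 311.1 and 366.7 FPKM (adjusted p = 0.0358) and Tnfaip3 (A20) from 11.5 and 7.93 to 22.2 and 20.5 FPKM (adjusted p = 0.0426), with 3 of 19 members higher (15.8%, against 6.05%, and 1 in the fit of the 10 low-flow libraries) and none lower. Over the whole NF-kB list the median log2 change was -0.24, with 11 members negative and 7 positive. Of 18 junction genes 1 was lower (5.56%, against 10.5% of all tested genes) and 1 higher (5.56%, against 6.05%), and with edgeR on the 4 libraries alone 1 was lower and 4 higher. Gja1 (connexin 43) fell from 39.6 and 78.3 to 3.44 and 3.06 FPKM (log2 -4.21 ± 1.14, adjusted p = 0.0347), and Cdh13 (T-cadherin) rose from 439.7 and 291.7 to 1022 and 982.3 FPKM (adjusted p = 0.0380).

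BMP and TGF-beta signalling had 7 of 25 members higher (28.0%, against 6.05% of all tested genes) and 2 lower (8.0%, against 10.5%), with 3 higher in the fit of the 10 low-flow libraries and 11 with edgeR on the 4 libraries alone. Tgfbr3 (betaglycan) rose from 5.5 and 2.52 to 18.9 and 21.3 FPKM (log2 2.30 ± 0.54, adjusted p = 0.0279), the type II receptor Tgfbr2 from 37.9 and 31.3 to 82.6 and 63.7 FPKM (adjusted p = 0.0313), and the inhibitory Smad6 from 63.7 and 41.9 to 113.4 and 153.1 FPKM (adjusted p = 0.0259). Of the 2 that were lower, Tgfbi, which TGF-beta induces, fell from 99.2 and 50.9 to 4.67 and 2.82 FPKM (log2 -4.35 ± 0.55, adjusted p = 0.00595), a gene that monocytes also express strongly. In coagulation and fibrinolysis 4 of 15 were lower (26.7%, against 10.5%) and 2 higher (13.3%, against 6.05%), which became 2 and 1 in the fit of the 10 low-flow libraries. Procr, the endothelial receptor for protein C, fell from 1028 and 841.0 to 291.2 and 264.9 FPKM (adjusted p = 0.0430) and Anxa2 from 1133 and 1026 to 533.8 and 496.6 FPKM (adjusted p = 0.0426), and F8 (factor VIII) rose from 0.814 and 0.554 to 2.13 and 1.76 FPKM (adjusted p = 0.0317).

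Matrix genes were called in both directions. Small leucine-rich proteoglycans were higher for 4 of 11 members (36.4%, against 6.05% of all tested genes; 2 in the fit of the 10 low-flow libraries) and lower for none: Dcn (decorin) rose from 65.5 and 51.5 to 176.0 and 403.7 FPKM (log2 2.28 ± 0.63, adjusted p = 0.0371), Omd from 7.33 and 6.05 to 33.2 and 34.8 FPKM (adjusted p = 0.0333), and Prelp from 7.20 and 3.47 to 23.6 and 18.4 FPKM (adjusted p = 0.0373). Of the depleted pools, Dcn was higher in replicate 2, which also held the fat and muscle transcripts. Fibroblast and adventitial genes, a list that shares Dcn, were higher for 3 of 14 (21.4%) and lower for none, with a summed level of 775.3 and 1165 FPKM against 496.4 and 400.2, and their part in the proteoglycan result was not tested. Collagen chains were lower for 3 of 14 (21.4%, against 10.5% of all tested genes; 1 in the fit of the 10 low-flow libraries), with Col8a1 from 70.0 and 110.5 to 19.9 and 7.02 FPKM (log2 -2.78 ± 0.61, adjusted p = 0.0244), Col5a2 from 98.7 and 109.9 to 44.6 and 27.9 FPKM (adjusted p = 0.0310) and Col12a1 from 2.30 and 3.03 to 0.0787 and 0.0865 FPKM (adjusted p = 0.0482). Of 19 proteases and their inhibitors 4 were lower (21.1%, against 10.5% of all tested genes) and 1 higher (5.26%, against 6.05%). Timp1 fell from 116.1 and 155.2 to 14 and 21.7 FPKM (log2 -2.96 ± 0.49, adjusted p = 0.0143), Mmp14 from 128.2 and 224.1 to 46.1 and 36.1 FPKM (adjusted p = 0.0283), and Timp2 rose from 439.7 and 290.8 to 1140 and 957.8 FPKM (adjusted p = 0.0288). Of 13 smooth muscle genes 2 were lower (15.4%, against 10.5% of all tested genes, and 1 in the fit of the 10 low-flow libraries) and none was higher. Acta2 fell from 2073 and 2349 to 244.0 and 362.4 FPKM (log2 -2.90 ± 0.66, adjusted p = 0.0260) and Tagln from 524.6 and 410.4 to 139.4 and 178.4 FPKM (adjusted p = 0.0455). The other 11 of that list did not pass, and Myh11, which defines differentiated smooth muscle, was at 1.87 and 4.36 FPKM with anti-GPIba against 1.58 and 1.11 with IgG.

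Complement genes were higher for 6 of 19 members (31.6%, against 6.05% of all tested genes) and lower for 2 (10.5%, the share of all tested genes). C1ra, a protease of the first component, rose from 35.4 and 16.3 to 112.9 and 102.6 FPKM (log2 2.04 ± 0.50, adjusted p = 0.0299). It shares annotated exons with C1rb. The 2 members that fell were C5ar1, the receptor for C5a, from 26.2 and 14.8 to 1.55 and 1.51 FPKM (log2 -3.77 ± 0.49, adjusted p = 0.00692) and Cfp (properdin) from 38.9 and 29.7 to 6.48 and 5.65 FPKM (adjusted p = 0.0134).

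Circadian clock genes were higher for 6 of 14 members (42.9%, against 6.05% of all tested genes) and lower for none, with a median log2 change of 1.44. Tef, a PAR-domain factor of the output loop, rose from 44.6 and 21.5 to 146.8 and 109.3 FPKM (log2 1.93 ± 0.45, adjusted p = 0.0272), Hlf of the same family from 0.836 and 0.457 to 3.35 and 2.38 FPKM (adjusted p = 0.0367), the repressor Cry2 from 16.1 and 9.87 to 40.0 and 35.3 FPKM (adjusted p = 0.0257) and Nr1d2 (REV-ERB beta) from 25.1 and 17.8 to 51.0 and 45.7 FPKM (adjusted p = 0.0285). Dbp, also a PAR-domain factor, was at 95.7 and 87.9 against 37.6 and 9.70 FPKM (adjusted p = 0.0743). Arntl (BMAL1), whose phase is opposite to that of the output loop, was at 2.81 and 7.32 against 4.71 and 6.13 FPKM. The labels give no clock time of collection, so time of day and treatment cannot be told apart. The summed level of the 15 clock genes was 505.2 and 457.3 FPKM with anti-GPIba and 238.4 and 132.8 FPKM with IgG. It was 477.8 and 374.4 FPKM after anti-Gr1, 460.2 and 216.3 FPKM after clodronate, and 153.3 and 125.8 FPKM after PBS liposomes. In high-flow arteries with IgG, read in another run, it was 510.9 and 415.3 FPKM. The part of time of day in these levels was not tested.

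Immediate early genes, which respond within minutes to stimuli and to handling, were lower for 5 of 19 (26.3%, against 10.5% of all tested genes). IgG replicate 1 was much the higher control. Nr4a1 was at 79.1 FPKM in IgG replicate 1, 6.88 FPKM in IgG replicate 2, and 3.91 and 3.94 FPKM with anti-GPIba, and its log2 change went from -3.47 to -0.85 (adjusted p = 0.118) without IgG replicate 1. Egr2 was at 23.5 and 2.98 FPKM with IgG and at 0.723 and 0.647 with anti-GPIba, with a change of -4.28 that became -2.16 (adjusted p = 0.0511). Atf3 was at 174.7 and 50.9 against 25.1 and 26.0 FPKM, with -2.16 that became -1.03 (adjusted p = 0.191).

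**Figure D4:**
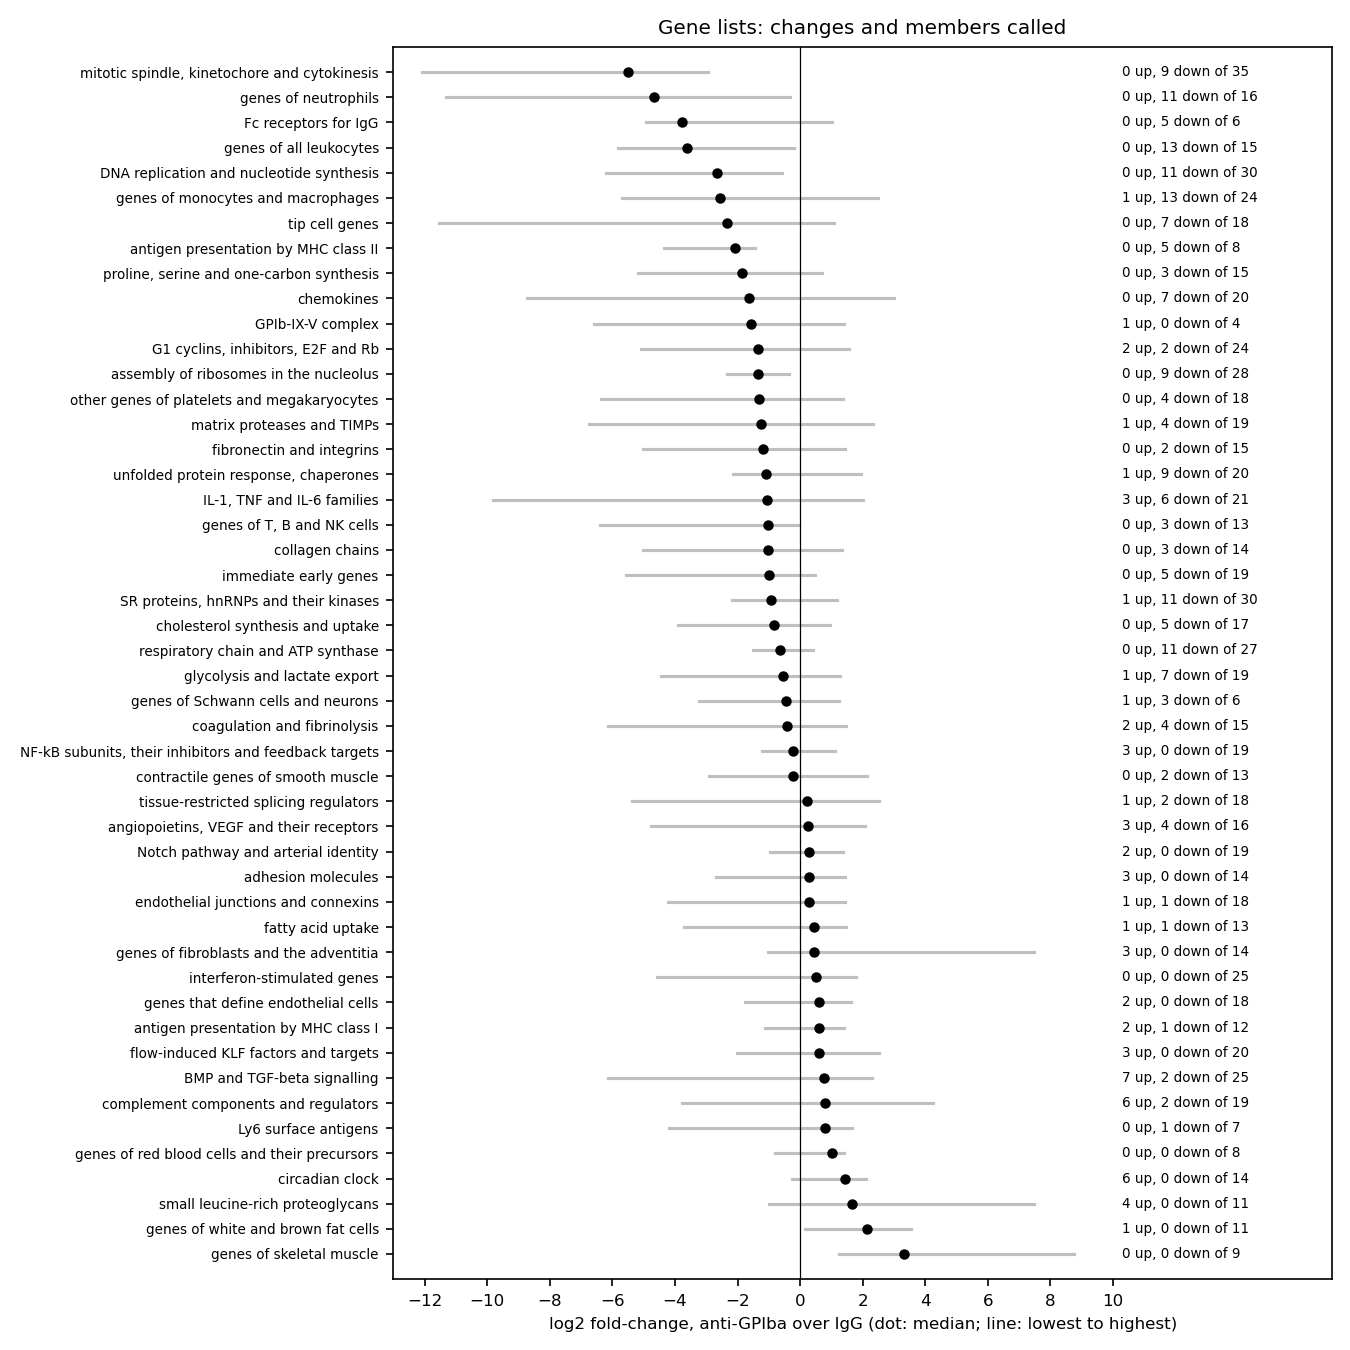
For each of 48 gene lists with at least 3 tested members (rows), the median log2 fold-change of anti-GPIba over IgG (dot), the range of its tested members (line) and, at the right, how many members were higher (up) or lower (down) of those tested, at an adjusted p under 0.05. Mitosis (median -5.51) and neutrophil genes (-4.68) stand at the low end, and circadian genes (1.44) and proteoglycans (1.65) are near the high end, where the fat and muscle lists hold 1 call and none.

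Among called genes at 10 FPKM or more in the higher group, the 10 largest increases included those in Cyp2e1, Inmt, Dpep1, Adra2a, Slco2b1, Fmo1, Ahsg, Grrp1 and Klf15. Klf15, a zinc-finger factor that glucocorticoids and fasting induce, on chr6:90412570-90425232 (mm9), was at 109.6 and 92.3 FPKM with anti-GPIba and at 14.9 and 15 FPKM with IgG (log2 2.72 ± 0.57, adjusted p = 0.0221). The flavin-containing monooxygenase Fmo1, which oxidises drugs and amines, rose from 45.1 and 33.1 to 303.2 and 289.0 FPKM (log2 2.89 ± 0.66, adjusted p = 0.0263). Adra2a, an adrenergic receptor, rose from 4.88 and 0.704 to 30.6 and 20.2 FPKM (adjusted p = 0.0334), the organic anion transporter Slco2b1 from 1.75 and 0.967 to 12 and 9.85 FPKM (adjusted p = 0.0294), and Ahsg (fetuin A) from 9.67 and 5.96 to 51.5 and 57.4 FPKM (adjusted p = 0.0289). In those genes the 2 depleted pools lay close together. For 3 others the pool with fat and muscle transcripts was much the higher: Cyp2e1, an ethanol-oxidising P450 that fat and liver express, was at 7.26 FPKM in anti-GPIba replicate 1 and at 75.3 FPKM in replicate 2, Inmt at 15.1 and 47.6, and Dpep1 at 7.79 and 26.9. Without anti-GPIba replicate 2 the change of Cyp2e1 went from 4.42 to 1.91 (adjusted p = 0.261). The part of fat in these 3 genes was not tested. Pnpla2, a triglyceride lipase, was the 1 of 11 fat cell genes called, and it rose in both pools, from 73.1 and 45.4 to 141.7 and 155.0 FPKM (adjusted p = 0.0320). Adipoq (adiponectin), which defines fat cells, was at 6.87 and 43.9 FPKM against 9.98 and 0.965 and did not pass (adjusted p = 0.127).

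The 10 largest decreases by the same rule, which ranks by fitted change, were in Esco2, Fam83d, Mxd3, Prnd, Bub1, Il1r2, Hmmr, Cxcr2, Il1b and Fam64a, 6 of them genes of dividing cells. Esco2, Fam83d, Mxd3 and Prnd were listed at 0 with anti-GPIba, so their fitted change is not a measured size and their place in the order is uncertain. Mxd3, a MAX-binding factor of proliferating cells, was at 15 and 29.6 FPKM with IgG and at 0 in both depleted libraries (at least 153.5-fold lower, adjusted p = 0.0336). Bub1, the spindle checkpoint kinase whose promoter is printed above, on chr2:127626858-127657601 (mm9), was at 7.98 and 16.3 FPKM with IgG and at 0.0810 FPKM and 0 with anti-GPIba (log2 -8.21 ± 2.43, adjusted p = 0.0430). Hmmr, which binds spindle microtubules, fell from 10.6 and 20 to 0.135 FPKM and 0 (adjusted p = 0.0344), and Fam64a from 40.2 and 67.1 to 0.343 and 0.293 FPKM (adjusted p = 0.0437).

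Genes that respond to flow in untreated mice were then followed through the platelet depletion, to ask how much of that response differed once platelets had been depleted. Untreated low-flow and high-flow pools at 48 hr, read at 100 bp, which share no library with the antibody comparison, differed in 5491 of 11546 genes tested (47.6%). In the low-flow pools lettered A and B the 10 most abundant genes held 22.8% and 23.5% of the counts. That share was 10.4% in low-flow pool C and 9.34% to 10.6% in the high-flow pools, and its part in the calls of the untreated pools was not tested. Of the genes higher at low flow there, 2785 were tested here: 1077 (38.7%) were lower with anti-GPIba, 3 were higher, and the median log2 change was -1.17. Of the genes lower at low flow, 2677 were tested here: 574 (21.4%) were higher with anti-GPIba, 6 were lower, and the median was 0.73. Among the 5986 genes tested but not called in untreated pools 206 (3.44%) were lower and 212 (3.54%) higher, with a median of -0.01, and of 1953 genes not tested there 116 (5.94%) were lower and 22 (1.13%) higher. Read from the other side, 1289 of the 1405 lowered genes were tested in the untreated pools and 83.6% of these were higher at low flow, against 24.3% of all genes tested in both. Of the 811 raised genes 789 were tested there and 72.8% were lower at low flow, against 23.4%. Changes with platelet depletion were thus mostly opposite in direction to those with low flow.

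**Figure D5:**
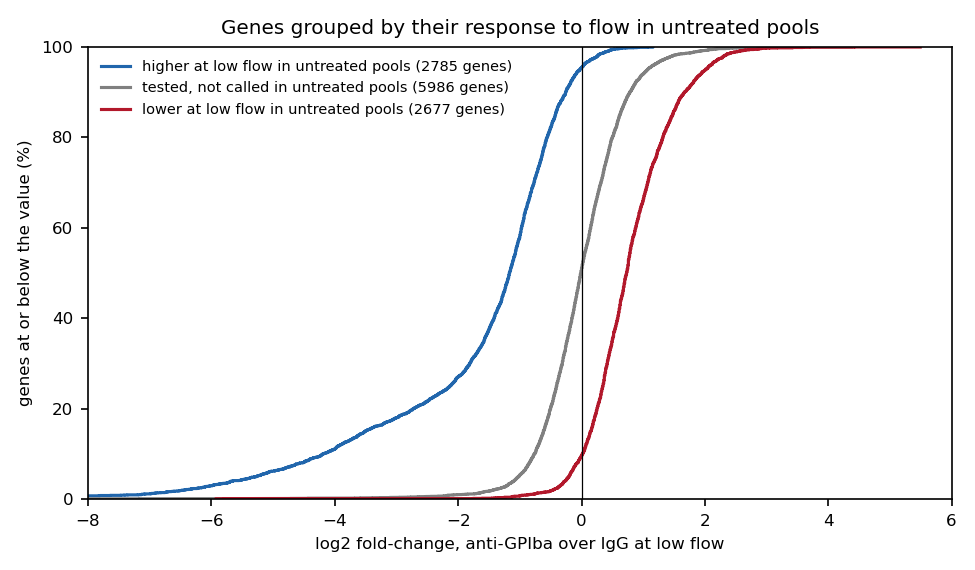
Cumulative share of genes in percent (vertical axis) by their log2 fold-change of anti-GPIba over IgG at low flow (horizontal axis), for the 2785 genes higher at low flow in untreated pools (blue), the 2677 lower at low flow (red) and the 5986 tested and not called there (grey). The blue curve lies to the left with a median of -1.17, the red curve to the right with a median of 0.73, and the grey curve is centred at -0.01.

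The 3 depletions could be set side by side at low flow. Tested directly, anti-GPIba and anti-Gr1 differed in no gene with edgeR on the 14 libraries, though 1409 genes (10.5%) reached an unadjusted p of 0.05, and DESeq2 called 354 genes, 314 of them lower with anti-GPIba. Without anti-Gr1 replicate 1 edgeR called 150. Cxcr2 was listed at 0 and at 0.153 FPKM with anti-GPIba and was at 0.782 and 0.307 FPKM with anti-Gr1. The growth factor receptor Csf1r was at 4.39 and 1.71 FPKM with anti-GPIba and at 26.6 and 23.7 FPKM with anti-Gr1 (log2 -3.09, adjusted p = 0.101). A fit of the 10 low-flow libraries called 75 genes, 72 of them lower with anti-GPIba. Clodronate liposomes left Csf1r at 1.67 and 1.83 FPKM, against 15.3 and 29.5 FPKM with PBS liposomes. The difference between the effect of anti-GPIba over IgG and that of clodronate over PBS, which share no library, passed for no gene with edgeR or with DESeq2, while 434 genes (3.24%) reached an unadjusted p of 0.05 with edgeR, and 1 gene passed without IgG replicate 2. For Csf1r the difference of the 2 effects was -0.11 and for Cxcr2 it was -4.10, each with an adjusted p of 1. With 2 pools a group these tests do not show that the depletions act alike.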

How the data were processed

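RNA was read from carotid intimal flushes. Per the submitters' processing notes, 150 bp reads were aligned with STAR 2.5.1b to mm9 and counted with RSEM 1.2.15, and the values the authors deposited are RSEM's expected counts per gene, not normalised. The 14 libraries of treated mice were read at 150 bp; the 9 columns of untreated pools used here hold 100 bp reads, fitted on their own, and 10 columns hold the low-flow libraries trimmed to 100 bp, used only as an alternative. The study names STAR for alignments of 100 bp reads too, and its methods also name TopHat for the untreated flow pools. Between 5.98% and 9.55% of the gene values in a library of treated mice were not whole. In the untreated pools it was between 6.27% and 19.32%. All counts were therefore rounded here. The counting options given in the study's methods set no strand, so reads of genes that overlap on opposite strands cannot be told apart. 1 entry with no gene name (0.0442% to 0.0609% of counts) was left out. Of 204 value columns 171 were not used: other experiments, other units and second sequencing runs.

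The 14 libraries of treated mice, 2 in each of 7 groups, were fitted together in edgeR 4.0.16 (R 4.3.3) with filterByExpr, TMM scaling and the quasi-likelihood test, and p-values were adjusted over all 13401 tested genes by the Benjamini-Hochberg method. DESeq2 1.42.0 was an alternative, as were the settings in the closing section. FPKM were computed from counts, effective length and library total. A fold against a group at 0 was computed at 3 counts per library and is a lower bound. Scripts were tested on simulated data.

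The members and gene lists were chosen with earlier results of these data known. Some members that the rule names are not reported here. The genes named were the platelet genes, per list up to 4 called members with the smallest adjusted p at 1 FPKM or more (otherwise the 2 most abundant), the 10 largest changes in each direction at 10 FPKM or more, and Ptprc, Cd68, Emr1, Itgam, Cxcr2, Fn1 and Rbfox2. Others, such as Ccna2, Cdca8, Kif11, Pcna, S100a8, S100a9, Gpnmb, Osmr, Clk1, Flt1, Mbnl3, Klf2, Klf4, Nos3, Vcam1, Sele, Dbp, Arntl, Myh11, Adipoq and Cdh5, were chosen after their values were seen. Coordinates are from the GENCODE annotation of mm9 and promoters from RefSeq.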

Additional observations from a re-analysis of the deposited data

How the results depend on the processing

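With 2 pools a group, leaving out 1 library left 1 to 89 genes called, 0 to 23 of them higher and 0 to 88 lower, with 0 to 36 list genes called against 234. Of the 137 called genes named here 5 kept their call without anti-GPIba replicate 1, 0 without anti-GPIba replicate 2, 20 without IgG replicate 1 and 29 without IgG replicate 2; none changed direction, and 110 kept their call in every alternative that left none out. DESeq2 called 3659 genes on the 14 libraries (1436 higher, 2223 lower, 385 list genes) and 4926 on the 4 libraries (2052, 2874 and 467), and edgeR on the 4 libraries called 4449 (1848, 2601 and 430). The replicate numbers did not pair the pools (r = -0.068 between anti-GPIba and IgG of the same number, 2 pairs), and a fit with a replicate block called 3307 genes, 1316 of them higher. The other settings, which were other scalings, filters on low counts, a minimum change, the low-flow libraries alone and trimmed reads (added after seeing the data), called 1612 to 2532. The direct comparison with anti-Gr1 called 354 genes with DESeq2, 75 with the low-flow libraries, 76 with no filter on low counts, 4 with the replicate block and 0 to 150 with a library left out. The difference from macrophage depletion called 0 to 1 with a library left out. The cause of these shifts was not tested. Among the genes named here, direction turned for these, none of which was called: Arntl (0.01 with upper-quartile scaling, 0.07 with trimmed reads, -0.98 to 0.40 with a library left out), Klf2 (-0.58 to 1.57), Bst2 (-0.52 to 0.09), Gp1bb (-1.64 to 0.50) and Mmrn1 (-5.59 to 4.99), all on the log2 scale and, unless said otherwise, with a library left out. Gp5 and Tubb1 were under 1 FPKM in the controls too, and the part of low counts in the platelet results was not tested.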
